A study of Mus musculus with 20 samples.

Results

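The genes described here were the Nrf2-Keap1 axis, a set of its targets and *Hmox2*, 9 of the 25655 genes in the count tables of the mouse utricle. They were chosen by name as the transcription factor gene *Nfe2l2* (which encodes Nrf2), the gene of its inhibitor *Keap1*, and the enzyme and transporter genes *Nqo1*, *Hmox1*, *Hmox2*, *Gclc*, *Gclm*, *Slc7a11* and *Srxn1*. The utricle is a balance organ of the inner ear, and its RNA was sequenced from female C57BL/6J mice whose operation took place at 8 weeks of age, with the tissue taken 4 weeks afterwards. Mice of the sham + v group kept their ovaries and carried a vehicle pellet, and mice of the OVX + v group were ovariectomized and carried a vehicle pellet. In place of vehicle, the pellet of the ovariectomized OVX + E2 mice held 50 µg of estradiol, and that of the ovariectomized OVX + RAL mice 2.4 mg of raloxifene, a selective estrogen receptor modulator, for release over 60 days. Each group had 5 libraries, which are named by their numbers 1 to 5 (sham + v), 6 to 10 (OVX + v), 11 to 15 (OVX + E2) and 16 to 20 (OVX + RAL). The sources do not tie a library to a single animal, so that the tests compare these libraries, whose differences may be technical.

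Nrf2 is a transcription factor that is made continuously and, in the resting cell, is bound by Keap1 and marked for degradation by the Cul3 ubiquitin ligase. Oxidants and electrophiles modify cysteines of Keap1, Nrf2 then accumulates, pairs with a small Maf protein and binds antioxidant response elements near its target genes. The axis is thus controlled to a large extent through the stability of a protein, which a measurement of RNA does not show, and its target genes serve as the usual transcript readout.

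Matches to the motif that Nrf2 binds are shown around the start of each gene. The core of the antioxidant response element was searched as TGACNNNGC on both strands, from 5000 bases before to 1000 bases after the start of the canonical transcript (GENCODE vM39, build GRCm39). All 9 genes held at least 1 match, with 27 matches together, but so did 84.4% of 21575 protein-coding genes. The match nearest the start site of that transcript is printed below for each gene, read on the strand that carries TGAC, with the motif in capitals and 10 bases on either side. These matches describe the letters of the sequence and not a measured binding site.
*Nfe2l2*, 262 bases before the start site, chr2:75535229-75535257, minus strand: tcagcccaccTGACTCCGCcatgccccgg
*Keap1*, base 536 from the start site, in an intron, chr9:21150126-21150154, plus strand: cgggtcacggTGACTAAGCacagcgcgcc
*Nqo1*, 1446 bases before the start site, chr8:108131362-108131390, plus strand: ggatgctgtgTGACCAGGCagcttcgtct
*Hmox1*, 3191 bases before the start site, chr8:75817040-75817068, minus strand: gtgcacacacTGACTTGGCttttggactc
*Hmox2*, across the start site, chr16:4544208-4544236, plus strand: cgtggcctggTGACTCCGCccctcgctgc
*Gclc*, 1997 bases before the start site, chr9:77659790-77659818, minus strand: tacacctgcaTGACTCAGCaggacagctg
*Gclm*, 54 bases before the start site, chr3:122039062-122039090, minus strand: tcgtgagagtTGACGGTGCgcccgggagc
*Slc7a11*, base 344 from the start site, in the untranslated part of an exon, chr3:50397702-50397730, minus strand: tcctctggtgTGACACTGCcatggtcaga
*Srxn1*, base 29 from the start site, in the untranslated part of an exon, chr2:151947462-151947490, minus strand: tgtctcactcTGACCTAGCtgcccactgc

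Within 250 bases before and 50 bases after the start site, 3 of the 9 genes (*Hmox2*, *Gclm* and *Srxn1*) had a match, beside 12.5% of all protein-coding genes. The fuller form TGACTCAGC was found in 8.16% of protein-coding genes over the longer window. It was present in 2 of the 9 genes, once in *Hmox1* and at 2 places in *Gclc*, of which the one at 1997 bases is printed above. The other 2 sites are given here because they carry the full core.
*Hmox1*, 3863 bases before the start site, chr8:75816368-75816396, minus strand: gaacagagggTGACTCAGCaaaatctgtc
*Gclc*, 3770 bases before the start site, chr9:77658017-77658045, minus strand: cgcctcaccgTGACTCAGCactctgcgcg

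The libraries held between 1123053 and 2081747 counts, and the lowest group median was that of OVX + E2 (1324047, range 1123053 to 1507667). Genes with a count numbered 7427 to 9680 per library in OVX + E2 and 8651 to 10625 in sham + v. They numbered 10004 to 10694 in OVX + v and 10103 to 10290 in OVX + RAL. Values are given as CPM, the count of a gene scaled to a common library total. The protocol reads the 3′ end of each mRNA, so that counts were not divided by length. Levels set between genes also depend on how much of each 3′ end the counted gene model holds, which differed between the 9 genes as described below. A count of 3, the smallest taken as detected, was worth 1.44 to 2.67 CPM, and this floor covers counting error only. The tissue label was checked by markers: all 6 hair cell markers (among them *Myo7a* and *Pou4f3*) and all 5 markers of supporting cells and the otolithic membrane (among them *Otog* and *Oc90*) were present. Their summed levels ranged over the 20 libraries from 330.5 to 1262 CPM for hair cells and from 1270 to 4397 CPM for supporting cells. Markers of Schwann cells summed to 1553 to 4019 CPM, of erythroid cells to 363 to 3837 CPM, of macrophages to 3.56 to 374 CPM, of bone cells to 0 to 222 CPM and of skeletal muscle to 0 to 185 CPM. The Schwann cell markers had a median of 3814 CPM in OVX + E2 (2115 to 4019), beside 1894 CPM in sham + v, 2483 CPM in OVX + v and 1862 CPM in OVX + RAL. In such whole tissue, fewer cells of a type and less RNA per cell cannot be told apart.

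All 9 genes were detected in the utricle, at unequal levels and with unequal regularity. The 4 genes *Slc7a11*, *Nfe2l2*, *Keap1* and *Gclc* reached 3 counts in 20 of 20 libraries. *Srxn1* did so in 17, *Hmox2* in 15, *Gclm* in 15, *Nqo1* in 8 and *Hmox1* in 7. Averaged over the 20 libraries, *Slc7a11* had the highest level at 137 CPM, followed by *Nfe2l2* (86.4 CPM), *Keap1* (74.9 CPM) and *Gclc* (54.1 CPM). Lower means were found for *Srxn1* (38.1 CPM), *Hmox2* (31.6 CPM), *Gclm* (30.2 CPM), *Nqo1* (13.4 CPM) and *Hmox1* (5.31 CPM). *Slc7a11* thus made up 29.1% of the summed level of the 9 genes and *Hmox1* 1.13%. The summed level was 444 ± 99.2 CPM in sham + v, 486 ± 121 CPM in OVX + v, 550.3 ± 157 CPM in OVX + E2 and 405 ± 81.3 CPM in OVX + RAL (mean ± SD, n = 5). Between 5 and 9 of the genes were detected in a single library, and the 2 libraries with all 9 were library 7 (OVX + v) and library 19 (OVX + RAL).

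**Figure D1:**
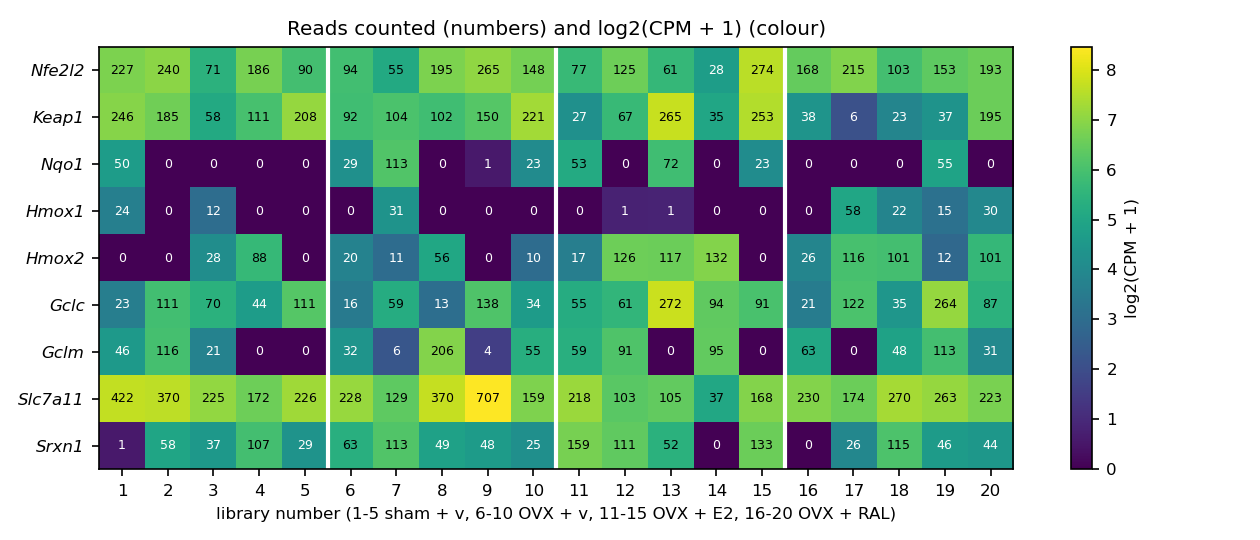
Reads counted on each of the 9 genes in each of the 20 libraries (numbers in the cells), with log2(CPM + 1) as colour. *Nqo1* and *Hmox1* are at 0 in 11 libraries each, and *Slc7a11*, *Nfe2l2*, *Keap1* and *Gclc* are counted in every library.

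None of the 9 genes passed the threshold in any of the 4 comparisons. In sham + v against OVX + v, 0 of 9 passed an adjusted p of 0.05 by edgeR's quasi-likelihood test, and 2 of 13825 genes (0.0145%) did so. The same counts were 0 of 9 beside 8 of 13695 genes (0.0584%) in OVX + E2 against OVX + v. They were 0 of 9 beside 4 of 14002 genes (0.0286%) in OVX + RAL against OVX + v, and 0 of 9 beside 10 of 13753 genes (0.0727%) in OVX + E2 against OVX + RAL. At an unadjusted edgeR p under 0.05 the 9 genes gave 0, 0, 1 and 0 calls in this order, the 1 being *Keap1*, where 12.5%, 13.9%, 12.1% and 14.1% of all genes tested were below that value. At an unadjusted DESeq2 p under 0.05 they gave 0, 1 (*Gclc*), 0 and 1 (*Hmox1*), beside 685, 718, 707 and 776 of all genes tested. EdgeR with all 20 libraries in 1 fit gave 0, 0, 0 and 1 (*Keap1*) unadjusted, beside 1492, 1741, 1439 and 1864 of 14870 genes. Limma on log2(CPM + 1) called 0 of the 9 genes at an adjusted p under 0.05 in each comparison, beside 0.0289%, 0.0803%, 0.0357% and 0.0727% of all genes tested. With a pseudocount of 0.1 it also called 0 of the 9, beside 0%, 0.0219%, 0% and 0.0145% of all genes. DESeq2 called 0 of the 8, 8, 8 and 9 genes for which it returned an adjusted p, the one without it being *Hmox1* in the first 2 comparisons and *Keap1* in OVX + RAL against OVX + v, where 0.115%, 0.391%, 0.0318% and 0.369% of all genes with such a value were called. Groups without overlap were found for 0 of the 9 genes in the 4 comparisons, and for 0.499%, 0.832%, 0.578% and 0.909% of all genes tested. The 3 comparisons with OVX + v share its libraries, as do those that hold OVX + E2 or OVX + RAL. So few genes passed over the whole table that the counts of the 9 genes do not set them apart from it. With these libraries the intervals of the differences were wide, and they are given below gene by gene.

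**Figure D2:**
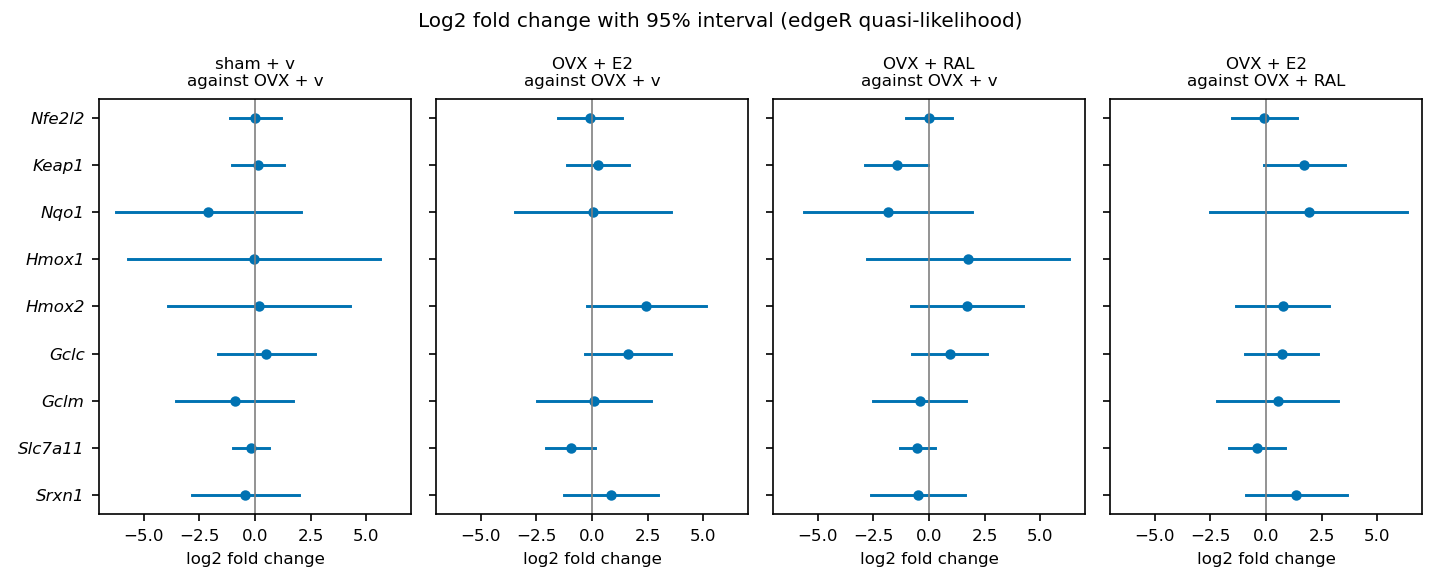
Log2 fold change (point) and 95% interval (line) of each gene in the 4 comparisons, by edgeR's quasi-likelihood test on 5 against 5 libraries. *Hmox1* is left out where OVX + E2 enters, since that group held 2 counts in all. Of the intervals drawn, 1 does not cover 0, that of *Keap1* in OVX + RAL against OVX + v (-2.87 to -0.03).

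*Nfe2l2* (ENSMUSG00000015839, chr2:75505857-75534985, minus strand) was the most even of the 9 genes between the groups. In the sham + v libraries it had 111, 126, 42.1, 104 and 59.7 CPM. The OVX + v libraries had 58.6, 34.5, 111, 131 and 103 CPM. Both groups thus spanned nearly the same range. With estradiol the values were 51.1, 94.4, 48.9, 24.9 and 192 CPM, and with raloxifene 86.4, 116, 60.5, 80.3 and 92.7 CPM. The OVX + E2 group held both the lowest and the highest of the 20 values, in libraries 14 and 15, and the OVX + RAL group was the narrowest. The group means were 88.5 ± 35.8, 87.6 ± 39.8, 82.3 ± 66.3 and 87.1 ± 20.1 CPM (mean ± SD, n = 5, groups in order of library number), and the highest was 1.07 times the lowest. Against OVX + v, the log2 fold changes were 0.01 for sham + v (95% interval -1.15 to 1.17), -0.09 for OVX + E2 (-1.54 to 1.37) and -0.01 for OVX + RAL (-1.04 to 1.02). None of the neighbours in the order of the means differed beyond their spread, with exact permutation p-values of 0.881, 0.794 and 0.484 (two-sided, n = 5 per group). The intervals leave room for a change of about 1 on the log2 scale in either direction.

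*Keap1* (ENSMUSG00000003308, chr9:21141026-21150657, minus strand) encodes the adaptor that ties Nrf2 to the ubiquitin ligase, and its highest group mean was 3.28 times its lowest. The OVX + RAL libraries had 19.5, 3.23, 13.5, 19.4 and 93.7 CPM. The OVX + v libraries had 57.3, 65.2, 57.8, 74.3 and 154 CPM. Libraries 16 to 19 of OVX + RAL were therefore below every OVX + v library, and library 20 was above 4 of them, so that the groups overlapped. With sham operation *Keap1* had 120, 97.1, 34.4, 62.1 and 138 CPM, and with estradiol 17.9, 50.6, 212, 31.2 and 177 CPM. The OVX + E2 values were split, with libraries 13 and 15 above and the other 3 below all OVX + v libraries. The means were 90.3 ± 42.2 CPM in sham + v, 81.7 ± 41.0 CPM in OVX + v, 97.9 ± 90.2 CPM in OVX + E2 and 29.9 ± 36.3 CPM in OVX + RAL (mean ± SD, n = 5).

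The log2 fold change of *Keap1* in OVX + RAL against OVX + v was -1.45 ± 0.72 (SE, 95% interval -2.87 to -0.03), with an edgeR p of 0.0457 and an adjusted p of 0.402 over all genes tested. The unadjusted p was 0.0633 with the filter of edgeR, 0.0615 with all 20 libraries in 1 fit and 0.05 or more in 6 of the 10 fits without a single library (0.00352 to 0.212 over the 10). DESeq2 returned no p-value for this gene, and limma on log2(CPM + 1) gave a p of 0.00724 and an adjusted p of 0.924. The exact permutation test on log2(CPM + 1) gave p = 0.0397 for this pair and p = 0.0238 for OVX + RAL against sham + v (two-sided, n = 5 per group, 252 groupings), both 0.119 after adjustment over the 6 pairs of groups. The fold change was -2.55 without library 20 (edgeR adjusted p = 0.561) and -1.09 without library 10 (0.971). *Keap1* was not distinguishable between OVX + v and sham + v (log2 fold change 0.14, 95% interval -1.03 to 1.32) or OVX + E2 (0.26, -1.15 to 1.67). Against OVX + RAL, OVX + E2 had a log2 fold change of 1.71 (-0.11 to 3.53, edgeR adjusted p = 0.419). The last 400 bases of *Keap1* overlap a transcript on the other strand, *Gm16754*, and whether the counting used the strand is not given in the sources used here.

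Since both genes were counted in every library, the count of *Nfe2l2* could be set against that of *Keap1* within a library, where the library's total cancels. The ratio was 0.433 to 1.68 in sham + v (median 1.22), 0.529 to 1.91 in OVX + v (median 1.02) and 0.230 to 2.85 in OVX + E2 (median 1.08). In OVX + RAL it was 4.42, 35.8, 4.48, 4.14 and 0.990 in libraries 16 to 20 (median 4.42). The value of 35.8 rests on 6 counts of *Keap1*. In 4 of the 5 OVX + RAL libraries the ratio was above all 15 libraries of the other groups, and in library 20 it lay within their range. The group means of *Nfe2l2* were nearly even (highest 1.07 times the lowest), so that the ratio largely restates the low *Keap1* of those 4 libraries. This ratio is a description and was not tested, and how many other gene pairs show the same was not counted.

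**Figure D3:**
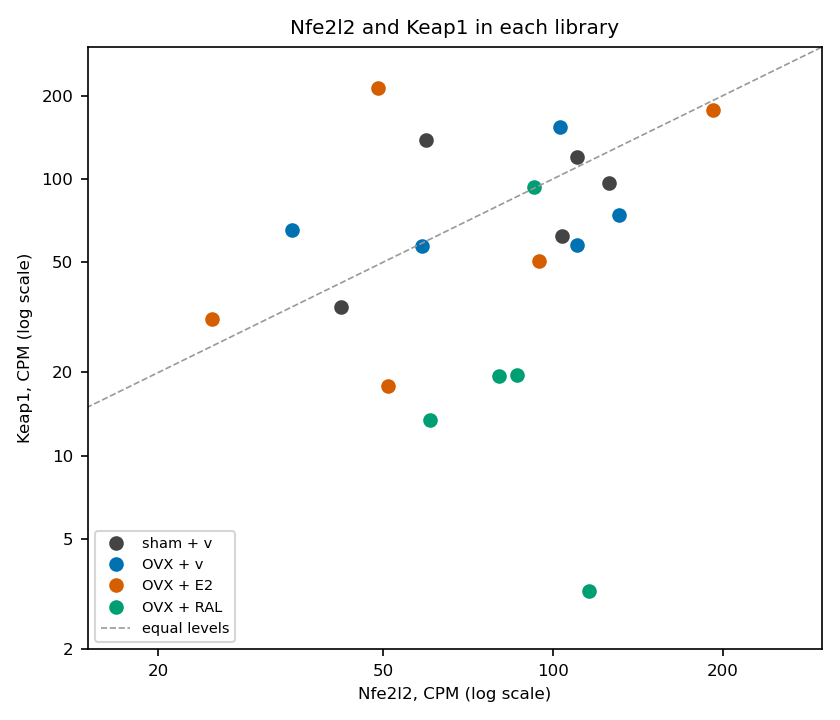
Level of *Nfe2l2* (horizontal) against that of *Keap1* (vertical) in the 20 libraries, in CPM on log scales, with the line of equal levels. Of the OVX + RAL libraries, 4 lie below the line at 3.23 to 19.5 CPM of *Keap1*, and library 20 lies near it at 93.7 CPM.

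*Nqo1* (ENSMUSG00000003849, chr8:108114857-108129838, minus strand) encodes a quinone reductase that is among the most used readouts of Nrf2. It was detected in few libraries, and the 8 that detected it held 23 to 113 counts. In sham + v it had 50 counts in library 1 and 0 in the other 4, and in OVX + RAL it had 55 counts in library 19 and 0 in the other 4. The OVX + v libraries had 29, 113, 0, 1 and 23 counts, and the OVX + E2 libraries 53, 0, 72, 0 and 23. *Nqo1* was thus detected in 3 of 5 libraries in these 2 groups and in 1 of 5 in each of the others. The mean levels were 4.87 ± 10.9, 21.1 ± 29.1, 21.8 ± 24.8 and 5.77 ± 12.9 CPM (mean ± SD, n = 5, groups in order of library number). Against OVX + v the log2 fold changes were -2.09 (95% interval -6.25 to 2.06) for sham + v, 0.05 (-3.46 to 3.56) for OVX + E2 and -1.86 (-5.62 to 1.91) for OVX + RAL. The smallest of the 6 exact permutation p-values between groups was 0.167 (two-sided, n = 5 per group).

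*Hmox1* (ENSMUSG00000005413, chr8:75820249-75827217, plus strand) encodes the inducible heme oxygenase, which splits heme into iron, biliverdin and carbon monoxide. With raloxifene its counts were 0, 58, 22, 15 and 30, so that 4 of 5 libraries detected it. The counts were 24, 0, 12, 0 and 0 in sham + v and 0, 31, 0, 0 and 0 in OVX + v. In OVX + E2 they were 0, 1, 1, 0 and 0. No OVX + E2 library reached 3 counts. The mean level was 13.3 ± 11.5 CPM in OVX + RAL, 3.76 ± 5.40 CPM in sham + v and 3.89 ± 8.70 CPM in OVX + v (mean ± SD, n = 5). The summed level in OVX + E2 was 0.0229 of that in OVX + RAL (95% interval 0.00274 to 0.0845) from 2 against 125 counts. This interval covers counting error only, and the spread between libraries was larger. In the exact permutation test OVX + E2 against OVX + RAL had p = 0.0476 (two-sided, n = 5 per group), which was 0.286 after adjustment over the 6 pairs, and edgeR's adjusted p was 0.604. Against OVX + v, whose 31 counts were all in library 7, the exact permutation p of OVX + E2 was 1 and edgeR's adjusted p 0.978.

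Macrophages are a known source of *Hmox1* transcripts, and the 6 macrophage markers were summed beside it. Their level was 132 to 267 CPM in OVX + RAL, 113 to 245 CPM in OVX + v, 87.8 to 374 CPM in sham + v and 3.56 to 356 CPM in OVX + E2. The group medians were 259, 161, 143 and 111 CPM in this order. No macrophage marker was at 0 over a whole group. The 5 erythroid markers, of cells that make heme, had group medians of 1442, 1384, 1181 and 685 CPM in the same order, with ranges of 825 to 2909, 830 to 2459, 571 to 1747 and 363 to 3837 CPM. The OVX + E2 group also had the lowest median total count, and the part of depth, macrophages and erythroid cells in the *Hmox1* counts was not tested.

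*Hmox2* (ENSMUSG00000004070, chr16:4544225-4584606, plus strand) encodes the constitutive heme oxygenase, which is not regarded as a classical Nrf2 target. With estradiol it had 11.3, 95.2, 93.8, 118 and 0 CPM. With raloxifene it had 13.4, 62.5, 59.3, 6.30 and 48.5 CPM. The OVX + v values were 12.5, 6.90, 31.7, 0 and 6.97 CPM, and the sham + v values 0, 0, 16.6, 49.2 and 0 CPM. The means were 13.2 ± 21.4, 11.6 ± 12.1, 63.6 ± 53.8 and 38.0 ± 26.3 CPM (mean ± SD, n = 5, groups in order of library number). In each of the OVX + E2 and OVX + RAL groups, 3 libraries were above all OVX + v libraries, and the other 2 lay within their range. Against OVX + v the log2 fold changes were 2.44 (95% interval -0.25 to 5.13, edgeR adjusted p = 0.477) for OVX + E2 and 1.70 (-0.82 to 4.22, 0.936) for OVX + RAL. The change for sham + v was 0.18 (-3.90 to 4.26), and it turned to -0.99 with limma on log2(CPM + 1), to -1.47 without library 4 and to -0.14 without library 9. The smallest exact permutation p over the 6 pairs was 0.0952 (two-sided, n = 5 per group), for OVX + RAL against sham + v. The gene model behind the counts ends 5210 bases before the end in GENCODE vM39, and its last 400 bases overlap *Cdip1* on the other strand, which had 2916 counts over the 20 libraries.

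*Gclc* (ENSMUSG00000032350, chr9:77661817-77701767, plus strand) and *Gclm* (ENSMUSG00000028124, chr3:122039206-122064381, plus strand) encode the catalytic and the modifier subunit of glutamate-cysteine ligase, the rate-limiting enzyme of glutathione synthesis. The catalytic subunit was counted in every library. Its OVX + v values were 9.97, 37.0, 7.37, 68.3 and 23.7 CPM, and its OVX + E2 values 36.5, 46.1, 218, 83.7 and 63.8 CPM. Libraries 13 and 14 of OVX + E2 were above all OVX + v libraries, and the lowest, library 11, was above 3 of them. The sham + v libraries had 11.2, 58.3, 41.5, 24.6 and 73.6 CPM, and the OVX + RAL libraries 10.8, 65.7, 20.6, 139 and 41.8 CPM. Both groups spread over most of the OVX + v range. Against OVX + v the log2 fold change of *Gclc* was 1.61 (95% interval -0.31 to 3.52, edgeR adjusted p = 0.587) for OVX + E2, 0.92 (-0.78 to 2.61) for OVX + RAL and 0.51 (-1.68 to 2.71) for sham + v. The exact permutation p was 0.0556 for OVX + E2 against OVX + v (two-sided, n = 5 per group) and 0.333 after adjustment over the 6 pairs.

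The modifier subunit *Gclm* was uneven in every group. It had 22.4, 60.9, 12.4, 0 and 0 CPM in sham + v and 19.9, 3.76, 117, 1.98 and 38.3 CPM in OVX + v. In OVX + E2 the values were 39.1, 68.7, 0, 84.6 and 0 CPM, and in OVX + RAL 32.4, 0, 28.2, 59.3 and 14.9 CPM. A value of 0 occurred in 3 of the 4 groups, and OVX + v was the group without one. The libraries highest in *Gclc*, 13 and 19, had 0 and 113 counts of *Gclm*, so that the 2 subunits did not peak together throughout. Against OVX + v the log2 fold changes of *Gclm* were -0.91 (95% interval -3.53 to 1.71) for sham + v, 0.09 (-2.47 to 2.65) for OVX + E2 and -0.42 (-2.52 to 1.68) for OVX + RAL. With single libraries left out these changes ran from -2.04 to 0.26, -0.42 to 1.26 and -0.94 to 0.75, so that each took both signs. The smallest exact permutation p over the 6 pairs was 0.437 (two-sided, n = 5 per group). The last 400 bases of *Gclm* overlap *Gm17494* on the other strand.

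*Slc7a11* (ENSMUSG00000027737, chr3:49846975-50398063, minus strand) encodes the cystine transporter xCT, which brings in the building block of glutathione, and had the highest mean of the 9 genes over the 20 libraries, although in OVX + E2 the mean of *Keap1* was higher. It was above 92.6% of the genes with a count. The OVX + v libraries had 142, 80.9, 210, 350.2 and 111 CPM, and the sham + v libraries 206, 194, 133, 96.2 and 150 CPM. The OVX + E2 libraries had 145, 77.8, 84.2, 32.9 and 118 CPM. Libraries 12 and 14 of OVX + E2 were below all OVX + v libraries, and none was above them. With raloxifene the values were 118, 93.7, 159, 138 and 107 CPM, all within the OVX + v range. The means were 156 ± 44.8, 179 ± 107, 91.5 ± 42.4 and 123 ± 25.6 CPM (mean ± SD, n = 5, groups in order of library number).

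The log2 fold change of *Slc7a11* against OVX + v was -0.97 (95% interval -2.06 to 0.13, edgeR adjusted p = 0.521) for OVX + E2, -0.54 (-1.32 to 0.24) for OVX + RAL and -0.20 (-1.01 to 0.61) for sham + v. In these 3 comparisons its intervals were the narrowest of the 9 genes. A gene's own spread entered little into these edgeR intervals, and that of *Slc7a11* in OVX + v was an SD of 107 CPM. In the exact permutation test, OVX + E2 against sham + v had p = 0.0476 (two-sided, n = 5 per group) and 0.286 after adjustment over the 6 pairs. The 3 neighbouring pairs in the order of the means had p-values of 0.897, 0.238 and 0.175 in the same exact test. The gene model behind the counts is much longer than the canonical transcript, whose 3′ end lies at position 50319387, and reads from any exon within that extent count toward the gene.

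*Srxn1* (ENSMUSG00000032802, chr2:151947436-151953296, plus strand) encodes sulfiredoxin, which restores overoxidized peroxiredoxins. With estradiol it had 105.5, 83.8, 41.7, 0 and 93.3 CPM. The OVX + v values were 39.2, 70.9, 27.8, 23.8 and 17.4 CPM. Libraries 11, 12 and 15 of OVX + E2 were above all OVX + v libraries, while library 14 held no count. With sham operation it had 0.487, 30.4, 21.9, 59.8 and 19.2 CPM, and with raloxifene it had 0, 26, 115, 46 and 44 counts, which came to at most 67.6 CPM. Both groups mostly overlapped OVX + v. Against OVX + v the log2 fold changes were 0.86 (95% interval -1.26 to 2.97) for OVX + E2, where limma on log2(CPM + 1) gave -0.01, -0.50 (-2.62 to 1.62) for OVX + RAL and -0.44 (-2.85 to 1.97) for sham + v. The smallest exact permutation p over the 6 pairs was 0.333 (two-sided, n = 5 per group).

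**Figure D4:**
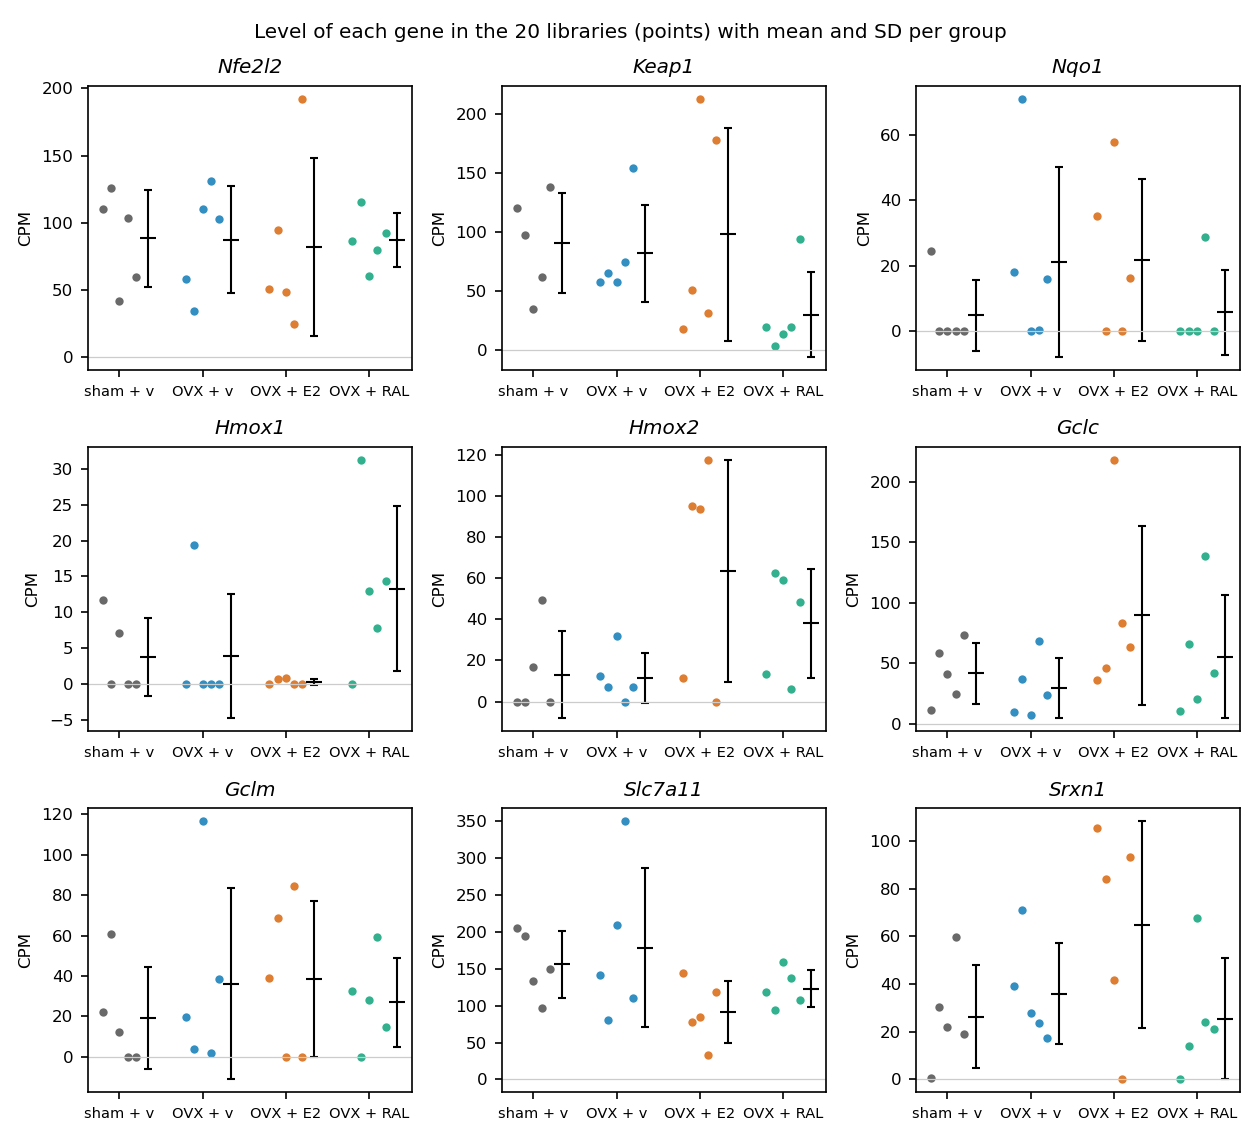
Level of each gene in CPM in the 5 libraries of each group (points), with mean and SD (black). The ranges of the groups overlap for all 9 genes, and 4 of the 5 OVX + RAL points of *Keap1* lie at or below 19.5 CPM.

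Over all pairs of groups, 54 exact permutation tests were made on the 9 genes, of which 4 (7.41%) had p under 0.05 and 0 had an adjusted p under 0.05. In the same test, 4.43% of the tests over all genes and the 6 pairs had p under 0.05, so that 4 of 54 tests do not set the 9 genes apart. By pair, the share was 3.85% for sham + v and OVX + v, 4.03% for sham + v and OVX + E2, 4.05% for sham + v and OVX + RAL, 5.18% for OVX + v and OVX + E2, 4.14% for OVX + v and OVX + RAL, and 5.32% for OVX + E2 and OVX + RAL. Among the 27 pairs of neighbouring means, 1 had p under 0.05, the step of *Keap1* from OVX + v to OVX + RAL. The smallest p that 5 against 5 libraries allow is 0.00794. By mean CPM, *Keap1*, *Nqo1*, *Hmox2*, *Gclc*, *Gclm* and *Srxn1* were highest in OVX + E2. The share of all genes with their highest mean in that group was not computed. By mean log2(CPM + 1), OVX + v was above OVX + E2 for *Keap1* (by 0.23), *Gclm* (0.50) and *Srxn1* (0.013). For *Hmox2*, OVX + E2 minus OVX + RAL was -0.12 on this scale. The Schwann cell markers had their highest group median in OVX + E2, and the part of these cells was not tested. The median log2 fold change of the 9 genes was -0.05 in sham + v against OVX + v, 0.09 in OVX + E2 against OVX + v, -0.42 in OVX + RAL against OVX + v and 0.69 in OVX + E2 against OVX + RAL. Over all genes tested the medians were -0.02, -0.06, -0.03 and -0.01. With TMM factors the median of all genes moved to -0.17 in both comparisons that hold OVX + E2, and that of the 9 genes to -0.04 and 0.55. With limma at pseudocounts of 1 and 0.1, the median of the 9 genes was -0.23 and -0.28 in OVX + E2 against OVX + v and -0.12 and -0.40 in OVX + E2 against OVX + RAL, so that both turned sign.

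The spread between libraries of a group was several times the counting error for each of the 9 genes. Within groups the coefficient of variation was 0.46 for *Slc7a11*, 0.51 for *Nfe2l2*, 0.76 for *Keap1*, 0.77 for *Srxn1* and 0.89 for *Gclc*. It was 1.03 for *Hmox2*, 1.16 for *Gclm*, 1.45 for *Hmox1* and 1.56 for *Nqo1*. These values were 4.26 (*Hmox1*) to 8.38 (*Gclc*) times what counting alone would give. Each gene was set beside the genes of a like mean level, within 1.5 times in either direction, whose median coefficient of variation ranged from 0.48 around *Slc7a11* to 2.09 around *Hmox1*. The share of these genes with a lower coefficient of variation was 7.96% for *Hmox1*, 25.2% for *Nfe2l2*, 32.4% for *Srxn1* and 41.5% for *Slc7a11*. It was 65.7% for *Hmox2*, 70.7% for *Nqo1*, 77.7% for *Keap1*, 79.3% for *Gclc* and 79.3% for *Gclm*. Libraries were made from 1 ng of RNA, the sources used here name no molecular identifiers, and the part of this step in the spread was not tested.

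**Figure D5:**
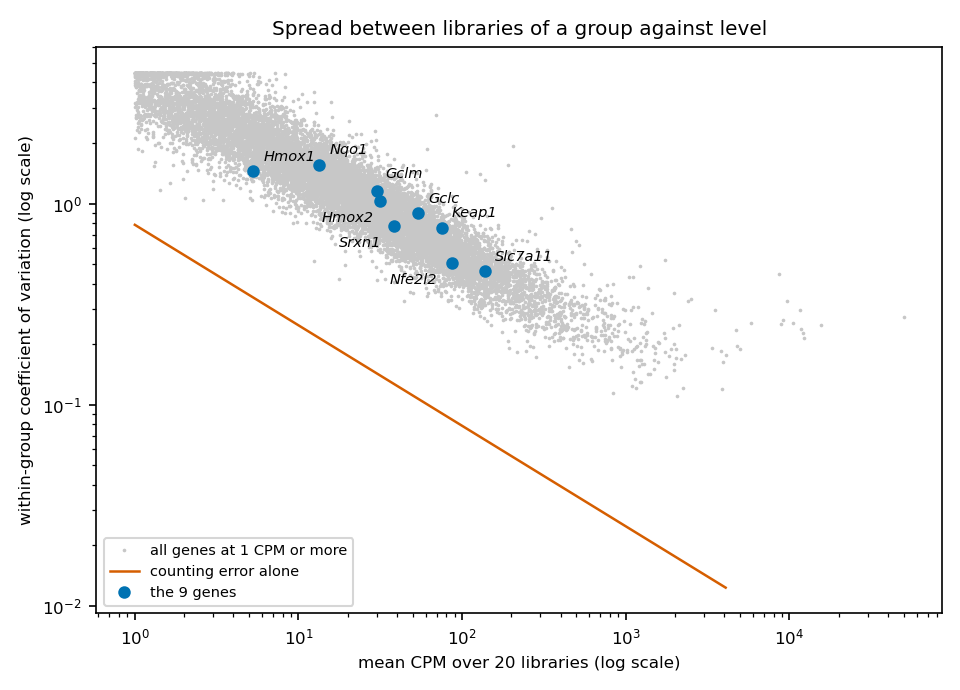
Within-group coefficient of variation against mean CPM over the 20 libraries, both on log scales, for all genes at 1 CPM or more (grey), the 9 genes (blue) and counting error alone (line). The 9 genes lie 4.26 to 8.38 times above the line, within the cloud of the other genes.

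The 3′ ends that such reads fall on were compared between the gene models of the count tables and GENCODE vM39, both on GRCm39. The newer models run at least 500 bases further for 5 of the 9 genes, *Hmox2* (5210 bases), *Srxn1* (4391), *Nfe2l2* (1118), *Nqo1* (1022) and *Gclm* (680), beside 20.2% of protein-coding genes. Reads from such extended ends would fall outside the counted model, and how many there were was not tested. Of those 5 genes, *Nfe2l2* was detected in every library and the other 4 were not. *Hmox1*, detected in the fewest libraries, had an extension of 0 bases. The share of extended models among all genes not detected in every library was not computed. A polyadenylation signal (AATAAA or ATTAAA) stood in the last 40 bases of the counted model for 6 of the 9 genes, and for 70.3% of protein-coding genes. *Hmox2*, *Slc7a11* and *Srxn1* were those without one. For *Slc7a11* the counted model ends at position 49846975, far from the canonical 3′ end at 50319387, which was not searched for a signal. The last 400 bases of each model and of each canonical transcript shared no run of 63 bases or more at 95% identity with transcripts of another gene on the same strand.

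Other genes of the pathway were described by a list of 44, all of which were tested in each comparison. None passed an adjusted p of 0.05 by edgeR in any comparison, and 1, 4, 0 and 4 had an unadjusted p under 0.05 (sham + v, OVX + E2 and OVX + RAL against OVX + v, and OVX + E2 against OVX + RAL), where 12.5%, 13.9%, 12.1% and 14.1% of all genes tested did. Limma called 0 of the 44 as well, and DESeq2 0 of the 39, 34, 41 and 37 for which it returned an adjusted p. Their median log2 fold changes were 0.06, -0.02, 0.03 and -0.09 in the same order, near those of all genes given above. Of the 13 regulators and partners of Nrf2, *Gsk3b*, a kinase that directs Nrf2 to degradation independently of Keap1, had 165 ± 98.0 CPM in sham + v and 178 ± 36.2 CPM in OVX + v (mean ± SD, n = 5). With estradiol and raloxifene it had 194 ± 57.8 and 193 ± 97.9 CPM. *Sqstm1*, whose protein p62 binds Keap1, had 142 ± 63.8, 160 ± 74.6, 169 ± 25.2 and 191 ± 55.3 CPM in the order of the groups used above. Neither gene passed the edgeR test in any comparison.

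In the 9 genes of the glutathione and thioredoxin systems, the most abundant was *Slc3a2*, the heavy chain that carries xCT to the membrane. Its level was 666 ± 76.6, 639 ± 182, 625 ± 214 and 683 ± 109 CPM, above that of *Slc7a11* in each group. *Prdx1*, a peroxiredoxin of the kind that sulfiredoxin repairs, had 346 ± 94.1, 295 ± 104, 404 ± 185 and 421 ± 52.7 CPM. Its log2 fold change against OVX + v was 0.51 ± 0.29 (SE) in OVX + RAL, with an edgeR adjusted p of 0.587. The 6 genes of NADPH supply had median log2 fold changes of 0.44, -0.09, 0.20 and 0.03 in the 4 comparisons, with 6, 3, 4 and 3 of them positive and 0 under an unadjusted edgeR p of 0.05. Of these, *Taldo1* had 399 ± 188, 304 ± 109, 323 ± 182 and 295 ± 24.0 CPM and *Tkt*, transketolase, had 153 ± 29.8, 139 ± 33.7, 76.9 ± 53.7 and 149 ± 49.6 CPM.

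The iron storage genes were the most abundant of the list and the steadiest. *Fth1*, the ferritin heavy chain, had 1848 ± 164, 2015 ± 352, 2126 ± 539 and 1882 ± 417 CPM, and *Ftl1*, the light chain, had 1079 ± 197, 1138 ± 97.4, 1366 ± 199 and 1334 ± 118 CPM. The log2 fold change of *Ftl1* against OVX + v was 0.26 ± 0.19 (SE) in OVX + E2 and 0.23 ± 0.20 in OVX + RAL, and neither passed the edgeR test (adjusted p = 0.806 for the first). In the group of conjugation and carbonyl reduction, *Gstm1*, a glutathione transferase, had 453 ± 98.0, 462 ± 106, 269 ± 87.0 and 358 ± 121 CPM. Its log2 fold change in OVX + E2 against OVX + v was -0.78 ± 0.34 (SE), with an edgeR p of 0.0213 and an adjusted p of 0.351. *Akr1a1*, an aldehyde reductase, had 374 ± 143, 323 ± 87.4, 284 ± 159 and 323 ± 89.8 CPM.

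The genes whose pattern over the 20 libraries was most like that of 2 of the 9 genes were sought among 3657 genes with a mean of at least 50 CPM. For *Nfe2l2* these were *Trappc3* (Spearman's rho 0.70), *Llgl1* (0.65) and *Eif1* (0.64). For *Slc7a11*, which had the highest mean, they were *Rcor1* (0.78), *Fam120b* (0.77) and *Acsl1* (0.76). The 99th percentile of rho over all genes compared was 0.51 for *Nfe2l2* and 0.54 for *Slc7a11*. The points of each rho are the 20 libraries of all 4 groups, in each of which both genes share the library's depth, and the values are a description.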

How the data were processed

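RNA of the utricle was measured in 4 groups of 5 libraries. Per the paper's methods, reads from a 3′ mRNA kit were trimmed, aligned to GRCm39 at the defaults of CLC Genomics Workbench and counted there by the authors. The deposited total counts are raw read counts per gene, and the authors' columns of CPM, TPM, RPKM, fold change and p-value were not used. The CLC version and the use of strand are not given in the sources used here. The counts of the OVX + v libraries were identical in all deposited tables, 0 columns held samples of other series, and 0 of 40 replicate pairs were identical.

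CPM came from the column totals of the counts. For each pair of groups, edgeR 4.0.16 (R 4.3.3) fitted a quasi-likelihood model with the total count as library size, for genes whose counts summed to 10 or more in the 10 libraries, with Benjamini-Hochberg adjustment over all genes tested and a threshold of 0.05. A standard error is the absolute log2 fold change over the root of F. The quasi-dispersion was shrunk almost fully to its trend, so that a gene's own spread entered little into its edgeR interval. Exact permutation tests used log2(CPM + 1). Alternatives were TMM factors, DESeq2 1.42.0, other filters, limma 3.58.1 on log2(CPM + 1) and log2(CPM + 0.1), the robust fit, the 20 libraries fitted at once, and leaving out single libraries. The fits were tested on simulated data. Sequences were read from GRCm39 with pysam 0.24.0 and compared with blastn 2.17.0, and tables and figures were made with Python 3.11.15, pandas 2.3.3 and matplotlib 3.10.9. The 9 genes, the 44 pathway genes and the markers were chosen with earlier results of these data known. The genes named beside the 9 were, by rule, the 2 most abundant of each of the 5 pathway groups, pathway genes past the threshold (0), and the 3 genes most like *Nfe2l2* and the most abundant of the 9. Overlapping genes were named after their positions were seen.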

Additional observations from a re-analysis of the deposited data

Results flagged for a closer look

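In 7 of 36 sets of 5 libraries (9 genes in 4 groups), the highest library stood apart from the other 4 by more than 0.71 of the range of its group. Chance flags about 1 in 20 such sets when values are normally distributed, which these skewed counts are not, so that the number of sets is a description. *Keap1* reached 154 CPM in library 10 of OVX + v and 93.7 CPM in library 20 of OVX + RAL, each the highest of its group. *Nqo1* stood apart in library 1 of sham + v (24.4 CPM), library 7 of OVX + v (70.9 CPM) and library 19 of OVX + RAL (28.9 CPM). *Hmox1* had 19.4 CPM in library 7 of OVX + v, the one library of that group that held it, and this library was also the high one for *Nqo1*. *Gclc* reached 218 CPM in library 13 of OVX + E2. The values with 0 counts in the other libraries of the group, *Nqo1* in sham + v and OVX + RAL and *Hmox1* in OVX + v, are apart by construction.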

How the results depend on the processing

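No paired analysis was possible because the libraries carry the numbers 1 to 20 and no number is shared between groups. In 18 alternatives of each comparison, no gene of the 9 that had an adjusted p was called. *Hmox1* had none with DESeq2 (sham + v and OVX + E2 against OVX + v), with the filter of edgeR (all but OVX + RAL against OVX + v) and in OVX + E2 against OVX + v without library 7, *Keap1* had none with DESeq2 in OVX + RAL against OVX + v, and *Nqo1* none with the filter outside OVX + E2 against OVX + v. The smallest adjusted p was 0.486 (sham + v), 0.368 (OVX + E2) and 0.375 (OVX + RAL) against OVX + v, and 0.394 in OVX + E2 against OVX + RAL. The counts of all genes past the threshold moved more, and the cause was not tested. In sham + v against OVX + v the 2 genes became 1 with TMM, 12 with DESeq2, 4 with limma on log2(CPM + 1), and 0 with the filter of edgeR, limma on log2(CPM + 0.1) and the robust fit (148, 588 and 1709 at an unadjusted p under 0.05). In OVX + E2 against OVX + v the 8 genes became 38 with DESeq2, 1 with the filter, 3 with limma on log2(CPM + 0.1) and 4 with the robust fit. In OVX + RAL against OVX + v the 4 genes became 0 with the filter, limma on log2(CPM + 0.1) and the robust fit (171, 630 and 1668 unadjusted). In OVX + E2 against OVX + RAL the 10 genes became 42 with DESeq2, 0 with the filter (151 unadjusted), 2 with limma on log2(CPM + 0.1), 6 with the robust fit and 16 with all 20 libraries in 1 fit. Leaving out single libraries gave 1 to 10 (sham + v), 6 to 17 (OVX + E2), 3 to 11 (OVX + RAL) and 8 to 16 genes (OVX + E2 against OVX + RAL). The count of sham + v was 10 without library 1 and 1 without library 2, 7 or 10. Without library 11 the counts of OVX + E2 were 17 and 16, and the count of OVX + RAL was 8 without library 7 or 18, 11 without library 16 and 9 without library 20.

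Log2 fold changes of the 9 genes that turned sign were none of them called. Against OVX + v, sham + v turned for *Nfe2l2* (-0.022, TMM), and for *Hmox1* (0.47 and 1.09) and *Hmox2* (-0.99 and -2.25) with limma at pseudocounts of 1 and 0.1. OVX + E2 turned with limma for *Keap1* (-0.23 and -0.24), *Gclm* (-0.50 and -1.66) and *Srxn1* (-0.013 and -0.65), for *Nqo1* at 0.1 (-0.38), and with TMM for *Nqo1* (-0.094) and *Gclm* (-0.043). OVX + RAL turned for *Nfe2l2* (0.023 with TMM and 0.023 with DESeq2, 0.11 and 0.11 with limma). Against OVX + RAL, OVX + E2 turned with limma for *Hmox2* (-0.12 and -0.74) and *Gclm* (-0.39 and -1.03). On the limma scales the median of all genes in OVX + E2 against OVX + v was -0.46 and -0.74. The permutation difference of *Nqo1*, OVX + v minus OVX + E2, turned to 0.38 with a pseudocount of 0.1 and 0.053 with TMM.

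With single libraries left out, the fold changes ranged in sham + v from -0.19 to 0.21 (*Nfe2l2*), -0.060 to 0.50 (*Keap1*), -1.10 to 5.75 (*Hmox1*), -1.47 to 0.99 (*Hmox2*), -2.04 to 0.26 (*Gclm*) and -0.38 to 0.20 (*Slc7a11*). In OVX + E2 they ranged from -0.67 to 0.14 (*Nfe2l2*), -0.24 to 0.62 (*Keap1*), -0.71 to 1.33 (*Nqo1*) and -0.42 to 1.26 (*Gclm*), and in OVX + RAL from -0.21 to 0.18 (*Nfe2l2*) and -0.94 to 0.75 (*Gclm*). In OVX + E2 against OVX + RAL *Nfe2l2* ranged from -0.67 to 0.15. Without a turn of sign, *Nqo1* ranged from -8.17 to -0.82 in sham + v, -8.23 to -0.58 in OVX + RAL and 1.14 to 8.11 in OVX + E2 against OVX + RAL, and *Hmox1* from 1.16 to 7.598 in OVX + RAL and -3.88 to -3.07 in OVX + E2. Values of 5.75 or more in size leave a group without counts and are no bounds. Of the others, sham + v ranged from 0.21 to 1.098 (*Gclc*) and -0.99 to -0.036 (*Srxn1*). OVX + E2 ranged from 0.97 to 2.20 (*Gclc*), 2.099 to 3.26 (*Hmox2*), -1.19 to -0.57 (*Slc7a11*) and 0.61 to 1.26 (*Srxn1*). OVX + RAL ranged from 0.24 to 1.51 (*Gclc*), 1.38 to 2.52 (*Hmox2*), -2.55 to -1.09 (*Keap1*), -0.72 to -0.14 (*Slc7a11*) and -1.27 to -0.094 (*Srxn1*). OVX + E2 against OVX + RAL ranged from 0.052 to 1.37 (*Gclc*), 0.00078 to 1.02 (*Gclm*), -5.66 to -4.51 (*Hmox1*), 0.40 to 1.06 (*Hmox2*), 1.21 to 2.81 (*Keap1*), -0.65 to -0.21 (*Slc7a11*) and 1.03 to 2.12 (*Srxn1*).

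*Nqo1* and *Hmox1* reached 3 counts in 8 and 7 of 20 libraries, and the part of depth in this was not tested. A missed threshold with these intervals does not show that the groups were alike.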
